A study of Helianthus annuus with 9 samples.

Results

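miR170 and miR171 are closely related plant miRNAs, listed in the deposited table under 26 entries whose names begin with miR170 or miR171, of 8473 small RNA entries in all. The entries were chosen by name alone and comprise 12 mature and 14 hairpin entries, 2 of them named miR170 and 24 named miR171. The seeds were those of L-1-OL-1, a field-grown high-oleic line of sunflower (Helianthus annuus), sampled at 7, 22 and 37 days for 3 small RNA libraries per day. All 9 libraries share this line, no treatment is given in the labels, and the sources used here do not say from which event the days were counted. Whether the 3 libraries of each day derive from separate plants is not stated in the labels, so p-values reflect only the spread among them, which may be technical. The comparisons ask how the family differed between the 3 stages of seed development.

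In plants, miR171 pairs with the mRNAs of GRAS-domain transcription factors of the HAIRY MERISTEM group, also called LOST MERISTEMS or SCARECROW-LIKE proteins in Arabidopsis, and directs their cleavage. These factors keep meristem cells undifferentiated, and in Arabidopsis the pair is known for its roles in shoot branching and chlorophyll synthesis. A miRNA hairpin yields a strand from its 5′ arm and a strand from its 3′ arm; the GRAS mRNAs are cut by the 3′ strand, while the 5′ strand is usually the less abundant partner. No mRNA was measured in these libraries, so the targets themselves are not described here.

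A library held 31011803 to 34397084 reads in all, of which 2208822 to 4050364 stood in small RNA entries and 297698 to 728740 in entries of known miRNAs. Levels are given below as CPM, which are reads per 1000000 reads in small RNA entries after TMM scaling. They are not divided by length, since a read spans a whole small RNA. The TMM factors followed the day and were 1.34 to 1.41, then 0.965 to 1.05 and lastly 0.693 to 0.743. A share of each change between days therefore rests on the scaling. A change is the log2 of the later over the earlier day. Its standard error (SE) was derived as the size of the change divided by the square root of the F statistic of edgeR's quasi-likelihood test. Adjusted p-values come from that test with Benjamini-Hochberg adjustment over the 7294 entries tested. Over all of these the median log2 change was -0.01 in the first interval (day 7 to day 22), -0.15 in the second interval (day 22 to day 37) and -0.57 over both (day 7 to day 37). RLE size factors moved these 3 medians by -0.34, 0.15 and -0.19, library totals alone by -0.44, -0.47 and -0.91, all reads as library size by 0.11, -0.28 and -0.12, and totals of known miRNAs (miRNA totals) by -0.66, 0.15 and -0.03.

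The miR171 entries summed were more abundant in day 22 and day 37 seeds than in day 7 seeds, about 4-fold with TMM scaling and less under some other scalings. The sum of all 24 entries was 1300 CPM, 1234 CPM and 1288 CPM in the day 7 libraries. At day 22 it was 4767, 4859 and 5028 CPM, and at day 37 it was 5929, 5642 and 5350 CPM. All libraries of the later days lay above all those of day 7, and the day 37 libraries lay above those of day 22. The day 7 mean was 1274 ± 35.3 CPM, that of day 22 4885 ± 132 CPM and that of day 37 5640 ± 290 CPM (SD, n = 3). The day 22 mean was thus 3.83 times and the day 37 mean 4.43 times that of day 7, or 1.94 and 2.15 on the log2 scale. The smallest values under other scalings were 1.30 for day 22, with miRNA totals, and 1.22 for day 37, by library totals. The difference between days 22 and 37, 1.16 times or 0.21 on the log2 scale, turned to -0.27 when scaled by library totals alone and to -0.08 on all reads. Counted per 1000000 of all reads, the sum went from 122 ± 1.83 over 515 ± 43.1 to 488 ± 11.7, and the day 22 and day 37 libraries overlapped. As a share of known miRNA reads it went from 1.04% ± 0.0983 over 2.55% ± 0.0992 to 4.49% ± 0.727, while the known miRNAs as a class took 16.0% to 18.0% of small RNA reads in the day 7 libraries, 18.9% to 19.8% in those of day 22 and 7.94% to 10.6% in those of day 37. The part of that class change in the rising share was not tested. No p-value is given for these sums.

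The miR170 sum, which is the mature and hairpin entry of miR170-5p, was higher at each later day, with steps whose relative size depended on the scaling. Of the 9 names joined under miR170-5p, 2 are miR170 names and the others are miR171 names, so this sum is not specific to miR170. It was 376 CPM, 384 CPM and 326 CPM at day 7, then 680, 776 and 791 CPM and lastly 1030, 1369 and 1258 CPM. No day overlapped another. The mean was 362 ± 31.0 CPM, then 749 ± 60.4 CPM and then 1219 ± 173 CPM (SD, n = 3), with log2 differences of 1.05 and 0.70. The 2 steps were 0.42 and 1.30 with miRNA totals, 0.60 and 0.24 by library totals and 1.18 and 0.42 by all reads. Per 1000000 of all reads the miR170 sum was 34.8 ± 3.20, 79.0 ± 9.25 and 106 ± 19.0, and here 1 of the 3 day 37 libraries, at 84.7, fell within the day 22 range of 70.5 to 88.8.

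**Figure D1:**
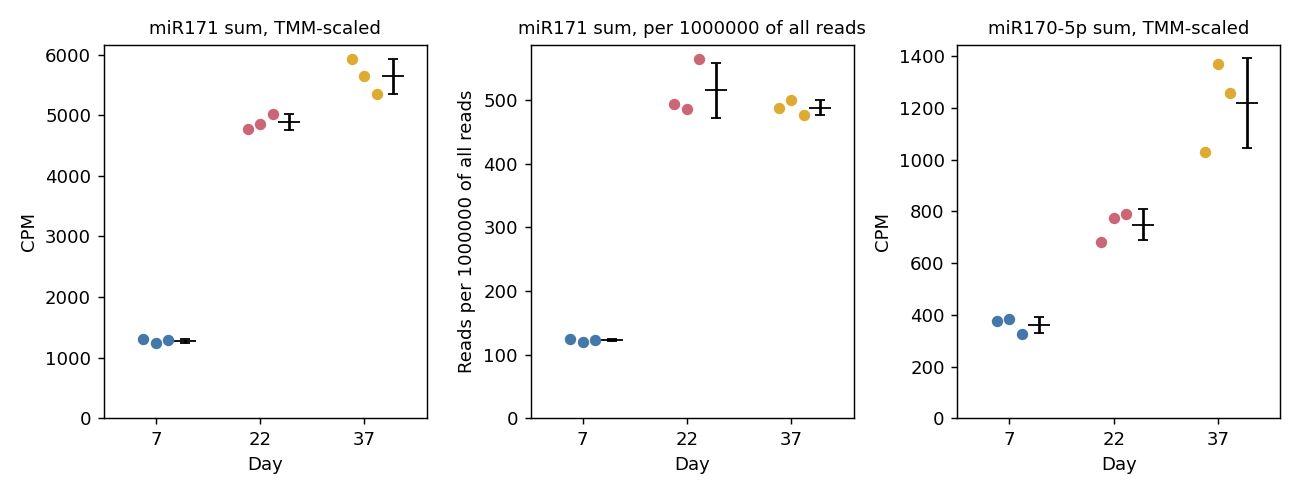
Summed mature and hairpin entries of miR171 (left, CPM; middle, reads per 1000000 of all reads) and of miR170-5p (right, CPM) by day; each point is 1 library, and the black marks are the mean and SD of the 3 libraries. On both scales every day 22 and day 37 library lies above the day 7 libraries, whereas the miR171 sums of days 22 and 37 are separate in CPM and overlap per 1000000 of all reads.

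A few entries carried nearly all of these reads. The mature entry miR171b_2 held 56.7% ± 1.91, 60.1% ± 1.13 and 64.0% ± 2.53 of all miR170 and miR171 reads on the 3 days (SD, n = 3). The table joins 86 names from 30 species codes under miR171b_2, of which 22 end in -3p and 0 in -5p, and 1 of these codes is that of the Jerusalem artichoke (Helianthus tuberosus), a species of the same genus. Mature miR170-5p came next with 21.3% ± 1.66, 12.8% ± 0.631 and 17.2% ± 2.50. It is a 5′ strand, and the table lists the Arabidopsis names miR170-5p and miR171a-5p under this same entry, so its reads cannot be told apart between miR170 and miR171a. A 3′ strand named miR170 is not among the members. With mature miR171a_1, miR171f_3, miR171b-3p and miR171b-3p_3, these entries made up 93.2%, 95.2% and 95.3% of the family's reads at days 7, 22 and 37. Hairpin entries together held 4.68% ± 0.317, 4.20% ± 0.391 and 4.29% ± 0.0491. The sources used here do not say how reads were divided between a mature and a hairpin entry of the same name. The nucleotide sequences of the entries were not used here.

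Of the 26 entries, 17 passed the filter on low counts and were tested, and 15 reached a mean of 10 CPM on at least 1 day. In the first interval 12 entries were higher and 1 was lower, when 69.8% of all entries tested were called in either direction, 35.3% as higher and 34.5% as lower, and 45.1% and 10.8% of the known miRNA entries. In the second interval 6 were higher and 3 lower, beside 18.8% and 31.8% of all entries (50.6% called in either direction) and 16.4% and 26.7% of known miRNA entries. Over both intervals 12 were higher and 1 lower, beside 33.1% and 45.6% (78.7% in either direction) and 39% and 23.1% of known miRNA entries. An entry that passes the filter only through the days on which it is high had to differ, so these counts describe the tested entries and are not independent support. The 6 rises of the second interval were 1 by library totals and 2 by all reads. The 3 falls were 3 under both and 2 with the replicate block. Among the falls, hairpin miR171a_1 passed the filter through day 22 alone. Mature miR171i_1 reached the filter's minimum in all libraries of days 7 and 22 but in 1 of 3 at day 37. The unchanged number of falls is therefore not independent support.

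**Figure D2:**
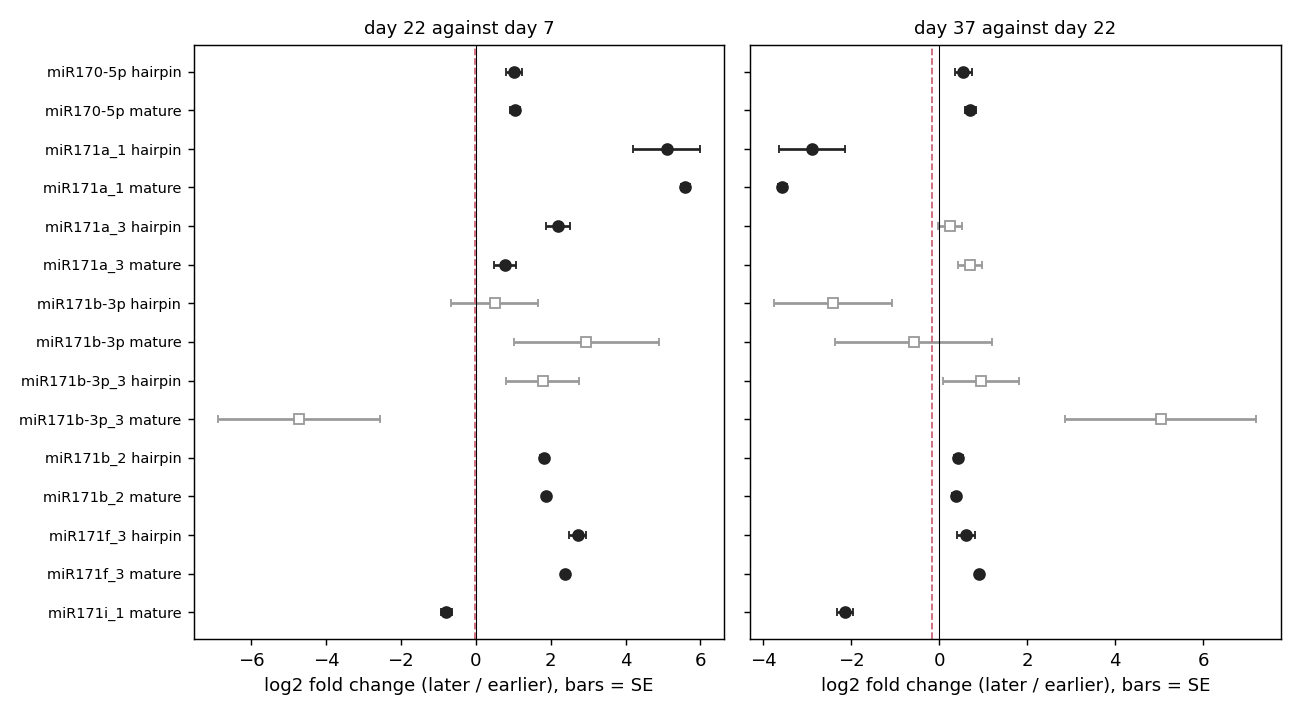
Fitted log2 fold change with its standard error for the 15 entries that reached 10 CPM, in the first (left) and second interval (right); filled circles passed the adjusted p threshold of 0.05, open squares did not, and the dashed line is the median over all 7294 entries tested. Most filled points lie to the right of the dashed line; miR171i_1 lies to the left in both panels, and miR171a_1 moves from the far right to the far left.

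The most abundant member, miR171b_2, rose in the first interval under every scaling tried and in the second with TMM, RLE and miRNA totals but not by library totals or all reads. Its mature entry stood at 944, 890 and 949 CPM in the day 7 libraries, at 3316, 3311 and 3522 CPM in those of day 22 and at 4652, 4353 and 4161 CPM in those of day 37. The 3 days did not overlap. It rose 3.65-fold from day 7 to day 22 (log2 1.87, SE 0.08, edgeR adjusted p = 8.63e-07) and a further 1.30-fold to day 37 (log2 0.38, SE 0.08, adjusted p = 0.00331). The second step was -0.10 by library totals and 0.09 by all reads, and passed the threshold under neither. The hairpin entry of miR171b_2, at 17.5 ± 1.58, 62.4 ± 5.05 and 84.5 ± 3.34 CPM, changed by 1.83 and 0.44 on the log2 scale (adjusted p = 3.45e-06 and 0.00608), and kept to 1.80% to 1.89% of the reads under that name. Its second step was -0.03 by library totals and, without passing, 0.16 by all reads.

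Mature miR171a_1 peaked at day 22. The entry, which carries a single name from Medicago truncatula, was at 11.2, 11.9 and 10.0 CPM at day 7, rose to 521, 553 and 541 CPM at day 22 and was back at 49.3, 45.9 and 41.9 CPM at day 37. The day 22 libraries lay over 10 times above those of either other day, and the 3 days did not overlap. The rise was 48.6-fold (log2 5.60, SE 0.11, adjusted p = 5.24e-08) and the fall 11.8-fold (log2 -3.56, SE 0.09, adjusted p = 1.23e-07), which left day 37 4.12-fold above day 7 (log2 2.04, adjusted p = 3.99e-07). Its share of all miR170 and miR171 reads went from 0.675% ± 0.0578 to 9.56% ± 0.260 and back to 0.666% ± 0.0380. Among the 195 known miRNA entries tested, its first change ranked 8 from the top and its second 18 from the bottom. Under the other scalings, filters and tools tried, the rise was 4.97 to 5.73 and the change to day 37 was -4.03 to -2.95 on the log2 scale, each within the threshold. The hairpin entry of miR171a_1 had 3, 0 and 0 reads at day 7, then 45, 44 and 43 and lastly 5, 5 and 4. It passed the filter on low counts through day 22 alone, so it had to differ there, and its p-values are not given as support.

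Without the reads of miR171b_2, the sum of the other miR171 entries differed in sign from the full sum in the later interval. It changed by 2.13 in the first interval and by -0.30 in the second on the log2 scale, where the full sum changed by 1.94 and 0.21. The other entries did not move alike in the second interval. Mature miR171a_1 went from a mean of 538 to 45.7 CPM, while mature miR171f_3 went from 232 to 437 CPM. A sum without both miR171b_2 and miR171a_1 was not computed.

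Mature miR171f_3 rose in both intervals. Its names come from 9 species codes, among them grapevine, soybean, tobacco and peach, and 1 name ends in -5p and 1 in -3p, so the arm is not settled by the names. It was at 46.7, 43.6 and 43.3 CPM at day 7, at 235, 238 and 224 CPM at day 22 and lastly at 449, 450 and 413 CPM, with no overlap between days. The first rise was 5.21-fold (log2 2.38, SE 0.08, adjusted p = 4.58e-07) and the second 1.88-fold (log2 0.91, SE 0.07, adjusted p = 1.56e-05). Under all scalings, filters, tools and left-out libraries tried, the second rise lay between 0.44 and 1.52 and passed the threshold. The hairpin entry of miR171f_3 was at 6.39 ± 2.15, 42.1 ± 7.21 and 64.3 ± 7.29 CPM and held 12.4% to 15.2% of the reads under its name. It rose by 2.72 (SE 0.24, adjusted p = 2.36e-05) and by 0.61 (SE 0.20, adjusted p = 0.0303). The second of these did not pass without day 22 replicate 1 or 3 or without replicate 1 or 2 of day 37, with 0.52 to 0.63 and adjusted p from 0.0613 to 0.0887, nor by library totals (0.14) or all reads (0.33).

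**Figure D3:**
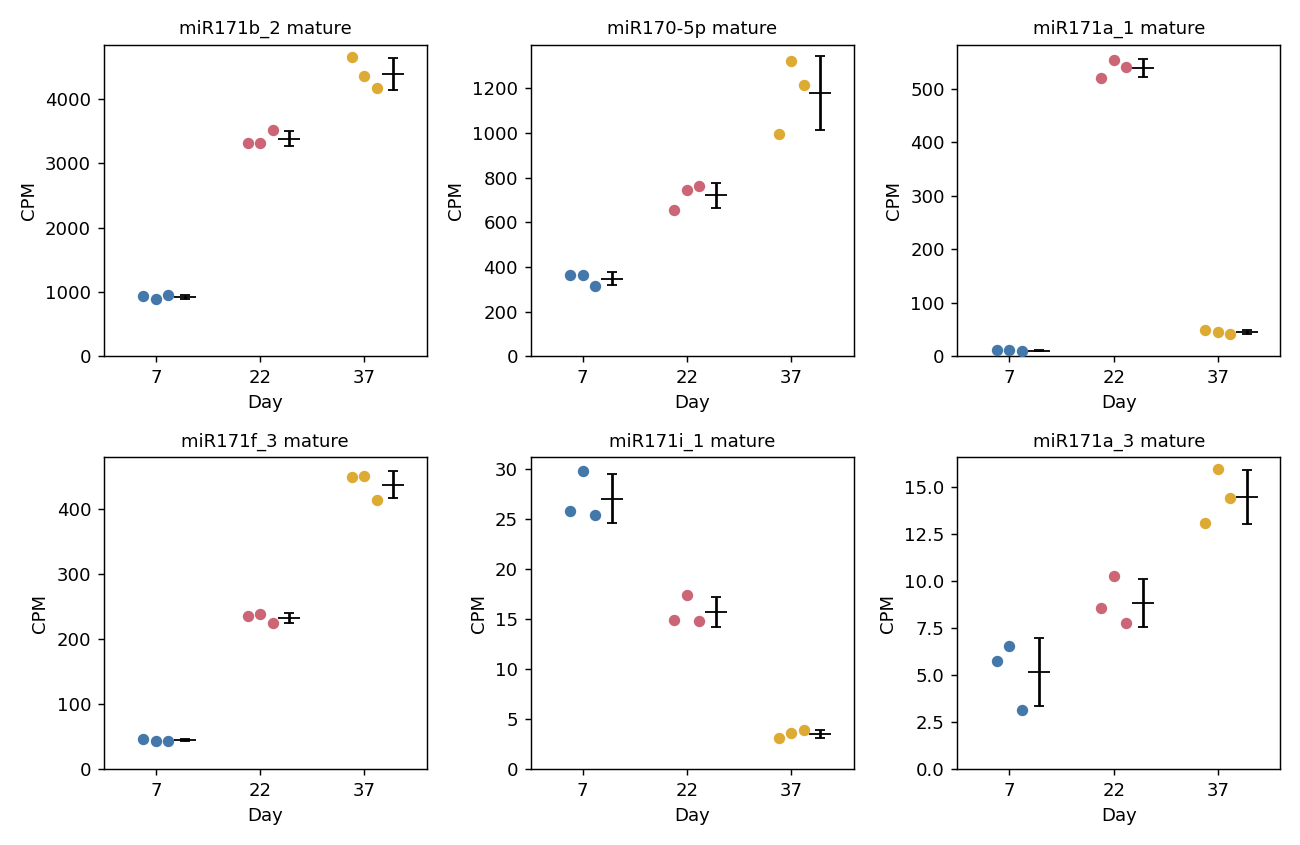
CPM of 6 mature entries by day; each point is 1 library, and the black marks are the mean and SD of the 3 libraries of a day, with a separate linear axis from 0 in each panel. The entries miR171b_2, miR170-5p, miR171f_3 and miR171a_3 are highest at day 37, miR171a_1 is highest at day 22 and miR171i_1 is highest at day 7.

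Mature miR171i_1 went the other way and was highest in the youngest seeds. The table joins 3 names under it, from apple, potato and Aegilops tauschii, and the potato name is miR479. It was at 25.7, 29.8 and 25.4 CPM at day 7, then at 14.9, 17.4 and 14.8 CPM and lastly at 3.08, 3.66 and 3.88 CPM. The days did not overlap. It fell by 0.78 on the log2 scale to day 22 (SE 0.15, adjusted p = 0.00146) and by 2.13 more to day 37 (SE 0.18, adjusted p = 2.14e-05), which made day 7 7.54-fold higher than day 37. Over the other scalings, filters and tools the first change was -1.41 to -0.66 and the second -2.59 to -1.55, all within the threshold. The entry reached the filter's minimum in all 3 libraries of days 7 and 22 but in 1 of 3 at day 37. It thus passed through the days on which it was higher, so its fall to day 37 is not independent support. It was 1.65% ± 0.167 of all miR170 and miR171 reads at day 7 and 0.0517% ± 0.00721 at day 37. The hairpin entry, with 1 to 6 reads per library, was not tested.

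The 5′ strand, mature miR170-5p, rose less steeply than miR171b_2 in the first interval and, in the fitted values, more in the second; the difference between the entries was not tested. It was at 364, 367 and 314 CPM at day 7, then at 657, 744 and 763 CPM and lastly at 997, 1323 and 1217 CPM. No day overlapped another. The first rise was 2.07-fold (log2 1.05, SE 0.13, adjusted p = 0.000137) and the second 1.63-fold (log2 0.71, SE 0.13, adjusted p = 0.00157), the latter at 0.24 and not passing with library totals alone. Its hairpin entry was at 13.6 ± 2.65, 27.5 ± 4.87 and 40.3 ± 6.54 CPM. It changed by 1.02 (SE 0.21, adjusted p = 0.00224; 0.39, not passing, with miRNA totals) and by 0.55 (SE 0.19, adjusted p = 0.0436). The second change did not pass without day 22 replicate 1 or 3 or without replicate 2 or 3 of day 37 (0.43 to 0.58, adjusted p from 0.0798 to 0.137), by library totals (0.09) or by all reads (0.28). Entries with -5p in their names, miR170-5p and the scarce miR171e-5p, made up 22.2% ± 1.74, 13.4% ± 0.736 and 17.9% ± 2.59 of all miR170 and miR171 reads on the 3 days.

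The reads of miR171b-3p and miR171b-3p_3 were split differently between these names in libraries of the same day. Whether the same reads moved from one name to the other was not tested. The first joins a maize and a sweet orange name, the second 31 names from 18 species codes with Arabidopsis among them. In day 7 replicate 1, mature miR171b-3p had 551 reads and miR171b-3p_3 had 20, while replicates 2 and 3 had 0 and 1 reads of the former and 626 and 604 of the latter. The 3 day 22 libraries had 1657, 1570 and 1862 reads of miR171b-3p and 0, 0 and 54 of miR171b-3p_3. At day 37, replicates 1 and 2 had 1254 and 1468 reads of miR171b-3p and 0 and 64 of miR171b-3p_3, whereas replicate 3 had 0 and 1327. Within day 7, the share of miR171b-3p in the pair thus ran from 0% (exact Clopper-Pearson 95% interval 0% to 0.588%) in replicate 2 to 96.5% (94.6% to 97.8%) in replicate 1, and within day 37 from 0% (0% to 0.278%) in replicate 3 to 100% (99.7% to 100%) in replicate 1; such intervals cover counting error only. At day 22 it was 97.2% to 100%. How reads that match more than 1 reference name were assigned is not stated in the sources used here. The sum of the pair hardly varied: its highest library was 1.03 times its lowest at day 7, 1.05 times at day 22 and 1.09 times at day 37 in CPM. The sum went from 193 ± 3.20 CPM over 486 ± 11.2 CPM to 486.5 ± 21.2 CPM (SD, n = 3), so it was 2.52 times as high at day 22 as at day 7 and differed by 0.00 on the log2 scale between days 22 and 37. The pair was joined after its values were seen, so no test is given for it. Scaling by library totals or all reads shifts all changes of the second interval downwards, as stated above.

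The hairpin reads of the same names were split unevenly as well, but in other libraries. The hairpin entry of miR171b-3p held 95.7%, 8.22% and 83.7% of the pair's hairpin reads in the day 7 libraries, then 11.3%, 5.73% and 95.7% and lastly 3.92%, 9.41% and 10.8%. In day 7 replicate 3 the mature reads stood under miR171b-3p_3 and most hairpin reads under miR171b-3p. The hairpin sum was 29.1 ± 5.41, 60.5 ± 18.0 and 68.2 ± 9.88 CPM on the 3 days. With such uneven splits the separate changes of the 4 entries are uncertain. With edgeR they gave adjusted p-values of 0.0814 to 0.711 in the first interval and 0.0885 to 0.914 in the second. Some passed under other settings. In the first interval mature miR171b-3p_3 passed with miRNA totals (-5.37, adjusted p = 0.0499) and in the fit of only the 2 days compared (-4.71, adjusted p = 0.0234), and its hairpin entry without day 7 replicate 2 (3.15, adjusted p = 0.0485) or day 22 replicate 3 (2.26, adjusted p = 0.0287). In the second interval mature miR171b-3p_3 passed without day 37 replicate 1 (5.61, adjusted p = 0.0443). Over both intervals, the hairpin entry of miR171b-3p_3 was higher (log2 2.75, SE 0.97, adjusted p = 0.0285), but did not pass without day 7 replicate 1 or 3 or without replicate 1 or 2 of day 37 (adjusted p from 0.0542 to 0.0985), nor by library totals (1.82, adjusted p = 0.107). Without day 7 replicate 1, mature miR171b-3p passed against day 22 and day 37, at log2 11.19 and 10.64, since 1 read of the entry was then left at day 7. In 10 of 50 pairs of a member and a day with at least 10 reads in a library, the highest library had at least 10 times the reads of the lowest, and 9 of the 10 were from these 4 entries. Among the other known miRNA entries this was so in 121 of 519 such pairs (23.3%, beside 20% of the members).

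**Figure D4:**
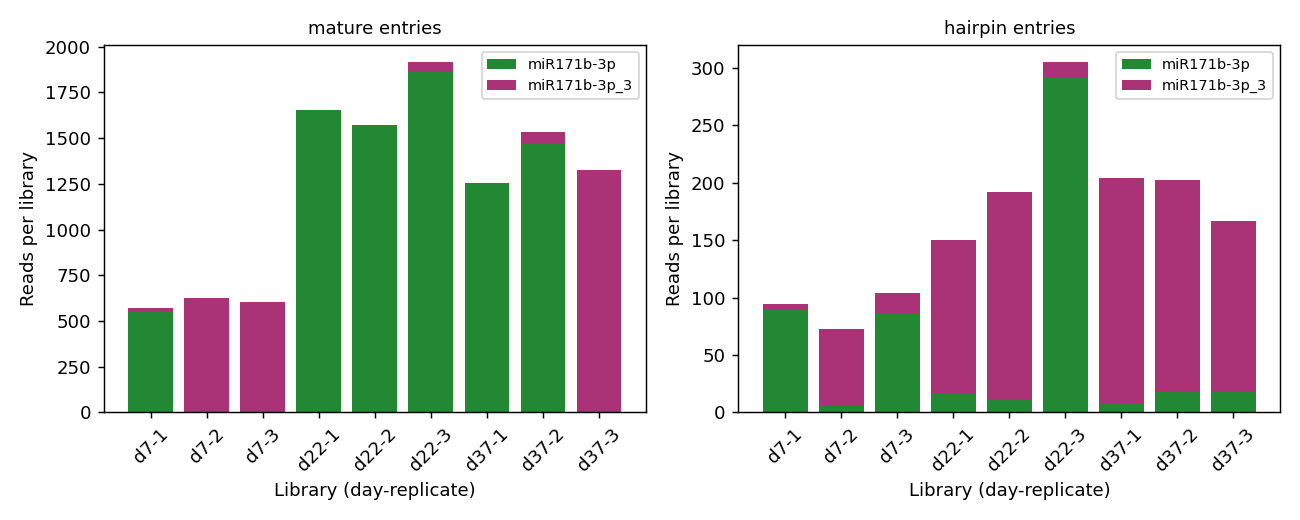
Reads of miR171b-3p and miR171b-3p_3 in each library, stacked, for mature entries (left) and hairpin entries (right). The mature bars are of like height within a day but change colour between libraries, as in day 7 replicates 1 and 2 with 551 and 0 reads of miR171b-3p.

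In miR171a_3, the hairpin entry had more reads than the mature entry. Its only name is that of the Jerusalem artichoke miR171a. The hairpin entry was at 6.44, 3.76 and 5.65 CPM at day 7, then at 27.2, 30.5 and 15.5 CPM and lastly at 26.9, 34.2 and 25.0 CPM. The day 7 libraries lay below all others, and those of days 22 and 37 overlapped. It rose 4.59-fold by day 22 (log2 2.20, SE 0.32, adjusted p = 0.000356) and stood at 0.24 (SE 0.27, adjusted p = 0.54) from there to day 37. The mature entry was at 5.76, 6.59 and 3.14 CPM at day 7, then at 8.58, 10.3 and 7.77 CPM and lastly at 13.1, 16.0 and 14.4 CPM. It was higher at day 22 by 0.78 (SE 0.29, adjusted p = 0.0408) and changed by 0.71 to day 37 (SE 0.28, adjusted p = 0.0624), and from day 7 to day 37 it was higher by 1.49 (SE 0.29, adjusted p = 0.00145; 0.58, not passing, with library totals alone). The day 22 call did not pass without day 7 replicate 1 or 3 or without any 1 of the day 22 libraries (0.45 to 0.80, adjusted p from 0.0594 to 0.14), nor under 7 other settings, among them DESeq2 (0.43). Hairpin reads exceeded mature reads in 2 of 3 libraries at day 7 and in all 3 at each later day, with hairpin shares of 50.5%, 73.1% and 66.5%. In miR171b_2, miR170-5p, miR171a_1, miR171f_3 and miR171i_1, hairpin reads exceeded mature reads in 0 libraries.

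The 11 entries that stayed under 10 CPM on every day had 0 to 25 reads per library and made up 0.413%, 0.324% and 0.243% of the family's reads at days 7, 22 and 37. They are the hairpin entries of miR171_1, miR171c_3, miR171i_1, and the mature and hairpin entries of miR171a-3p, miR171d_1, miR171e-5p and miR171f_1. Only 2 of them were tested. Mature miR171d_1, known by a tomato name, had 3, 3 and 2 reads at day 7, then 12, 11 and 11 and lastly 14, 14 and 18, with no overlap between day 7 and the later days. Mature miR171e-5p had 0, 1 and 2 reads at day 7, then 11, 18 and 25 and lastly 11, 12 and 9. Both passed the filter through the later days alone, so their p-values are not given. The entry miR171a-3p, which holds the Arabidopsis 3′ strand of that name, had 1 to 7 mature reads per library; the Arabidopsis names miR171b-3p and miR171c-3p stand under miR171b-3p_3.

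Among 27 other known miRNA families with a mean of at least 10 CPM, those whose course over the 9 libraries was most like the miR171 sum were miR3630, miR156, miR397, miR536 and miR169. Pearson's r of log2(CPM + 1) was 0.997, 0.995, 0.986, 0.970 and 0.941 in this order, given as a description over 9 libraries that share 3 days and the same scaling. The miR3630 family went from 28.6 over 178 to 235.5 CPM, and miR156, which represses SPL transcription factors and keeps plants juvenile, from 533 over 6512 to 10250 CPM. The laccase regulator miR397 stood at 37.1, 263.5 and 252 CPM, the NF-YA regulator miR169 at 43.4, 144 and 305 CPM, and miR536 at 6.58, 2813 and 5647 CPM. The day 37 libraries of miR169 were at 399, 243 and 274 CPM. Of their mean, 102 CPM came from hairpin miR169e_3, an entry that did not pass the filter on low counts. The day 37 libraries of miR536 were at 1365, 2987 and 12587 CPM, and without replicate 3 their mean was 2176 CPM, below that of day 22.

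**Figure D5:**
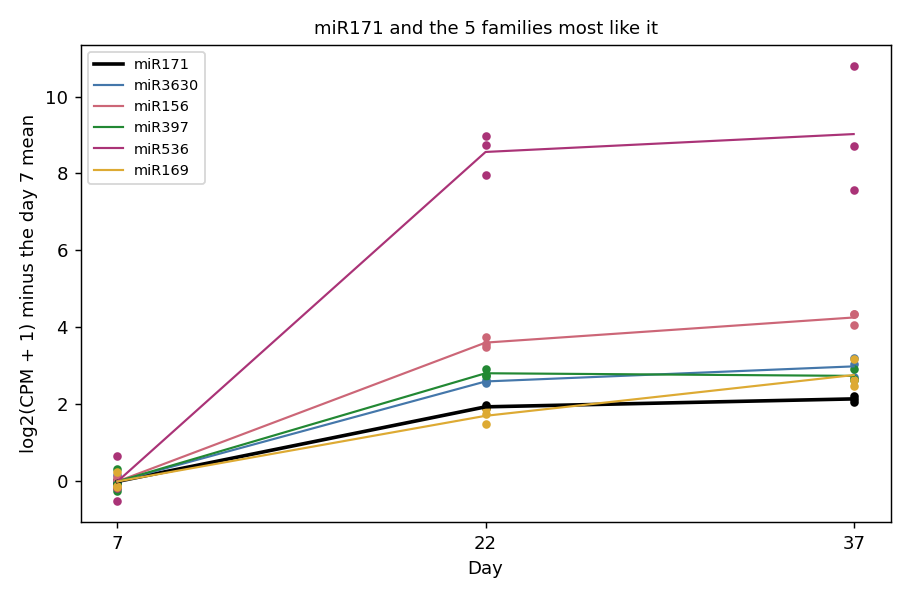
log2(CPM + 1) of family sums minus their day 7 mean, by day, for miR171 and the 5 families with the highest correlation to it; points are libraries and lines join the day means. All 6 families lie above their day 7 level at days 22 and 37, with miR171 (black) lowest at day 37 and miR536 highest.

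For comparison, 9 other families that target transcription factors or related regulators of development were taken as a list, which is not complete: miR156, miR159, miR164, miR166, miR169, miR172, miR319, miR394 and miR396. They have 152 entries, of which 100 were tested. In the first interval 36 were higher and 8 lower, beside 35.3% and 34.5% of all entries tested and 45.1% and 10.8% of known miRNA entries. Their median change was 0.69, where the 17 tested members of miR170 and miR171 had a median of 1.86. In the second 14 were higher and 25 lower, beside 18.8% and 31.8% of all entries tested and 16.4% and 26.7% of known miRNA entries. The median of the list was -0.45 and that of miR170 and miR171 0.44. Over both intervals 31 were higher and 27 lower, beside 33.1% and 45.6% of all entries tested and 39% and 23.1% of known miRNA entries. Here the median of the list was 0.12 and that of miR170 and miR171 2.24. The list leaves out miR160 and miR167, which target ARF transcription factors and went from 659.9 over 1297 to 1492 CPM and from 7739 over 17730 to 29490 CPM. With them added, a choice made after seeing the data, 117 entries were tested and the medians were 0.77, -0.12 and 0.54, so the medians of the list depend on which families it holds. The medians over all entries tested are those given above, and the difference between the lists was not tested. Of the 17 members, mature miR171d_1, mature miR171e-5p and hairpin miR171a_1 passed the filter through later days alone. Such entries had to differ, so the medians of 1.86 and 2.24 are not independent support. The value of 1.86 is that of mature miR171d_1 itself. How many entries of the list passed in the same way was not counted. The most abundant entry of miR164, a regulator of NAC factors, was mature miR164c_1, which went from 2459 over 4196 to 488 CPM and was lower at day 37 than at day 22 (log2 -3.10, SE 0.12, adjusted p = 3.79e-07). That of miR166, which targets HD-ZIP III factors, was mature miR166a-3p, at 11400, 16220 and 18540 CPM, with 0.51 (SE 0.11, adjusted p = 0.00311) to day 22 and 0.19 (adjusted p = 0.185) to day 37. The miR166 sum did not follow this entry. It was 35710, 35850 and 28680 CPM on the 3 days, and so lowest at day 37. The leading hairpin entry of miR394, miR394a_1, changed by 2.03 (adjusted p = 0.000412) and -0.69 (adjusted p = 0.0776). The leading entries of miR156, miR159, miR319 and miR396 did not pass in any contrast, and those of miR169 and miR172 were not tested. The SE was 1.5 to 2.2 for those of miR156 and miR396, so these results do not describe their families. The miR396 sum went from 42410 over 55410 to 3848 CPM, and the miR156 sum is given above. The sums of miR159 and miR319 were 8635, 11240 and 12720 CPM and 1441, 1510 and 1138 CPM.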

How the data were processed

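Libraries of 18 to 30 nt RNA with molecular identifiers in the 3′ adapter were made from seeds, per the labels' protocols. Bowtie2 is named in the submitters' processing notes without a role or version; the sources used here do not give the counting tool, genome build, any filter or the use of the identifiers. Per entry, the deposited table gives whole-number counts of reads, not normalized per the file headers. A deposited column headed TPM does not sum to 1000000 and was treated as a score of unstated meaning, for an alternative only. The totals for exons, introns and intergenic sequence were left out of library sizes.

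Counts were tested in edgeR 4.0.16 (R 4.3.3) with TMM factors, filterByExpr by day and the quasi-likelihood test, fitting all 9 libraries together by day, with a threshold of 0.05. The code was tried on simulated counts in which a small part of the entries changed, equally up and down, at day 22 alone. In these data 50.6% to 78.7% of the entries were called, so the simulation does not test the scaling used here. Family sums are mature plus hairpin entries and have no test. Named entries are members with a mean of at least 10 CPM on a day, the 5 families most like the miR171 sum by Pearson's r, and the most abundant entry of each family listed. Members, lists and rules were chosen with earlier results of these data known. Alternatives were RLE factors, library totals, all reads or known miRNA totals as library size, no filter, a filter of 10 reads in 3 libraries, DESeq2 1.42.0, the values headed TPM (rounded and run through the same count test, although their unit is unstated), only the 2 days compared, a replicate block and leaving out each library. The precision of a value follows from its reads. The mature sequences of the members were not used here.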

Additional observations from a re-analysis of the deposited data

Results flagged for a closer look

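The table also lists RF00643, an Rfam precursor model described as MIR171_1, which the comparisons above do not use because its name does not begin with miR171. It is given because it held reads in all 9 libraries, with a highest count of 67 reads in day 22 replicate 2 and a lowest of 7 in day 37 replicate 3. The day 7 libraries had 9, 10 and 9 reads, those of day 22 had 23, 67 and 11, and those of day 37 had 34, 12 and 7. With edgeR the entry gave log2 1.73 from day 7 to day 22 (SE 0.83, adjusted p = 0.0943) and -0.63 from day 22 to day 37 (SE 0.79, adjusted p = 0.59). How its reads relate to the hairpin entries of miR171 was not tested.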

How the results depend on the processing

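The miR171 sum from day 7 to day 22, 1.94 on the log2 scale, was 1.59 with RLE factors, 1.49 with library totals alone, 2.07 with all reads as library size, 1.30 with miRNA totals, 1.82 with the values headed TPM, 2.13 without miR171b_2 and 2.04 without the miR171b-3p entries. From day 22 to day 37 (0.21) it was 0.36, -0.27, -0.078 and 0.81 with these 4 scalings and -0.30 without miR171b_2. From day 7 to day 37 (2.15) it was 1.95 with RLE factors, 1.22 with library totals alone, 1.99 with all reads, 2.03 with the values headed TPM, 1.83 without miR171b_2 and 2.27 without the miR171b-3p entries. The last 2 choices were made after seeing the data. The miR170 sum was 0.70, 0.60 and 0.42 with RLE factors, library totals and miRNA totals from day 7 to day 22 (1.05), 0.24, 0.42 and 1.30 with library totals, all reads and miRNA totals from day 22 to day 37 (0.70), and 0.84 with library totals from day 7 to day 37 (1.75). Leaving out single libraries moved the miR171 sum to 1.92 to 1.96, 0.17 to 0.24 and 2.11 to 2.18, and the miR170 sum to 0.98 to 1.11, 0.61 to 0.81 and 1.66 to 1.86.

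Entries called from day 22 to day 37 went from 9 to 4 with library totals and 5 with all reads, and those higher from 6 to 1 and 2. Entries lower from day 7 to day 22 went from 1 to 2 with miRNA totals, in the fit of only the 2 days compared and with the replicate block. Leaving out single libraries gave 1 to 2 lower from day 7 to day 37. Whether the replicate numbers pair the libraries was not settled here. The correlation of same-numbered deviations was -0.04 to 0.145, over 0.1 in 2 of 9 pairs. With the replicate block the number of entries called was 12, 9 and 13 in the 3 contrasts, beside 13, 9 and 13. From day 7 to day 22 it gave 10 higher and 2 lower beside 12 and 1, with mature miR171a_3 (adjusted p = 0.0888) and 1 entry under 10 CPM lost and mature miR171b-3p_3 gained (-6.05, adjusted p = 0.00881). From day 22 to day 37 it gave 7 higher and 2 lower beside 6 and 3, with mature miR171b-3p_3 gained (4.72, adjusted p = 0.0238) and hairpin miR171a_1 lost (-2.94, adjusted p = 0.0651). Of the libraries, 4 of 9 correlated best with their own number on both other days.

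Changes of single entries turned sign 15 times in 710 recalculations, were weaker in 35 and stronger in 16. From day 7 to day 22, hairpin miR171b-3p (0.51) was -0.14 with miRNA totals, -0.080 with the replicate block and, with single libraries left out, between -2.32 and 1.03, negative without day 22 replicate 3 or day 7 replicate 2. From day 22 to day 37, hairpin miR171a_3 was -0.22 and -0.023 with library totals and all reads, hairpin and mature miR171b_2 -0.032 and -0.10 with library totals, mature miR171b-3p (-0.57) 0.11 with miRNA totals and, with single libraries left out, -0.998 to 0.011, positive without day 37 replicate 3, and hairpin miR171b-3p (-2.41) was -2.93 to 0.36, positive without day 22 replicate 3. From day 7 to day 37, mature miR171b-3p_3 (0.31) was -0.59 with library totals, -1.33 with the replicate block, and -3.57 to 0.90 with single libraries left out, negative without day 37 replicate 3 (-3.57) and day 7 replicate 1 (-0.30). The cause was not tested. Depth limits the entries under 10 CPM, where 9 of 11 were too scarce to test.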

Other observations

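At the other end of the same order of likeness stood miR162, a regulator of the miRNA-processing enzyme DCL1, with r = -0.923 to the miR171 sum over the 9 libraries, and miR393, a regulator of auxin receptors, with r = -0.804. The miR162 family went from 538.5 over 174 to 216 CPM and miR393 from 206.5 over 80.2 to 11 CPM, while the miR171 sum was higher at both later days. The abundant miR396 family, which targets growth-regulating factors, had r = -0.493. These correlations are descriptions over libraries that share 3 days and the same scaling.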
